A study of Mus musculus with 13 samples.

Results

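The genes described here are 10 mouse genes that mark immature natural killer (NK) cells and lymphoid progenitors, taken from 54532 genes counted in each library. They were chosen by name and matched by Ensembl identifier: the transcription factor genes Tcf7, Lef1, Myb, Satb1 and Id3, the cytokine receptor genes Kit and Il7r, and the surface protein genes Cd93, Thy1 and Emb. RNA was sequenced from sorted NK cells of C57BL/6J mice aged 8 to 10 weeks, which were wild type (WT) or carried the label CD8KO. Liver-resident NK cells (LrNK) are labelled as liver lymphocytes, and conventional NK cells (cNK) as splenocytes, so organ and cell type cannot be told apart. LrNK had 4 libraries from WT mice and 3 with the label CD8KO, and cNK had 3 of each. Titles of the latter 3 cNK libraries read CD8, not CD8KO as in LrNK, and were taken as the same label. The sources used here give neither the allele or Cd8 gene affected, nor the sort gates, nor the number of mice behind a library, so p-values measure the spread between these samples, which may be technical. The study's question was whether CD8+ T cells, which CD8-deficient mice lack, bear on the maturation of LrNK.

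NK cells arise from bone marrow progenitors and pass through stages that are told apart by surface receptors, losing KIT, the receptor for stem cell factor, and the IL-7 receptor as they mature. The high mobility group factors TCF1 (from Tcf7) and LEF1 act with beta-catenin or with Groucho corepressors and are needed early in T and NK cell development. ID proteins bind E proteins and keep them off DNA, which opens the innate lymphoid path. LrNK, which many authors class with type 1 innate lymphoid cells, express CD49a, CXCR6 and TRAIL and, unlike cNK, little Eomes.

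Library totals ran from 30578631 to 72716020 counts, and values are CPM, counts scaled by the library's total. Replicates 2 and 4 of LrNK WT differed little beyond counting noise (chi-square per degree of freedom 3.04, against 196 to 283 for other pairs of that group), as did replicates 2 and 3 of LrNK labelled CD8KO (2.67, against 255 and 265). Each such pair was summed and counted as 1 sample, which left 3, 2, 3 and 3 samples. The LrNK samples also differed in the number of genes detected: 13917 to 15797 in LrNK WT 1 and 3 and labelled CD8KO 1, and 19896 to 22921 in the other LrNK libraries, against 22250 to 22778 in cNK. Cd8a, which encodes the CD8 alpha chain, stood at 20.1 to 20.5 CPM in the WT samples of LrNK, where those labelled CD8KO had 41.6 and 43.7. In cNK it stood at 0.561 to 0.578 CPM in WT and 85.9 to 109 in the samples labelled CD8KO. Cd8a thus went against the label in both cell types, and an exchange of labels would turn the direction of every comparison by label below. Whether Cd8a is the gene affected, and whether a deletion would remove the counted exons, is not given in the sources used here. Lists of cell type markers matched the cell types named: 7 LrNK markers summed to 1110 to 2020 CPM in LrNK and 61.7 to 84.2 in cNK, and 8 cNK markers to 86.2 to 300.1 CPM in LrNK and 4439 to 5052 in cNK.

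**Figure D1:**
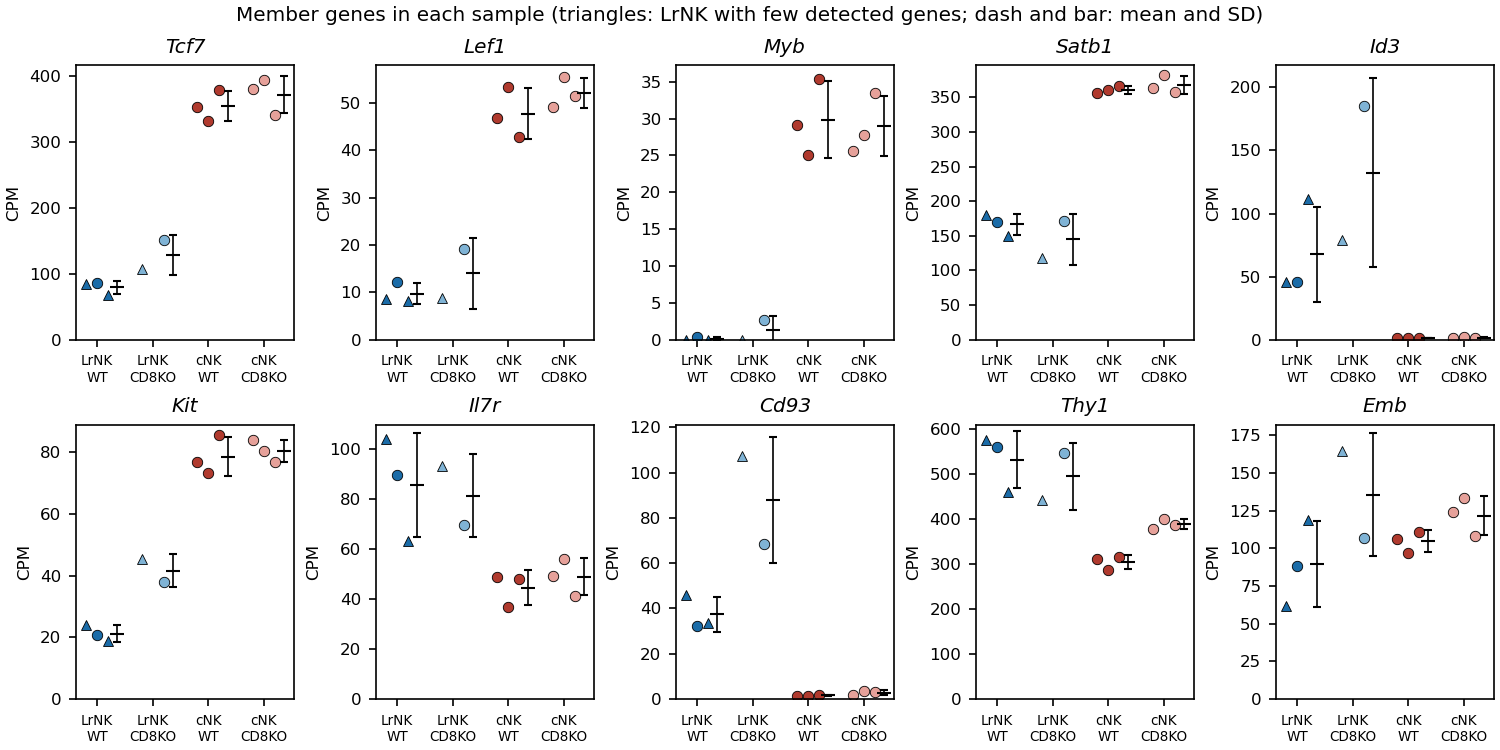
Each panel plots 1 gene; the vertical axis is CPM, each point is 1 sample, and the dash and bar are the group's mean and SD (n = 3, 2, 3 and 3). Triangles are the LrNK samples with few detected genes. Tcf7, Lef1, Myb, Satb1 and Kit are lower in every LrNK sample than in any cNK sample, Id3, Il7r, Cd93 and Thy1 are higher, and Emb overlaps.

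The 10 genes did not move as a group between LrNK and cNK. In the WT samples, 5 of the 10 were lower in LrNK (Tcf7, Lef1, Myb, Satb1 and Kit), 4 were higher (Id3, Il7r, Cd93 and Thy1) and Emb was not called. Calls rest on edgeR's quasi-likelihood test, at an adjusted p under 0.05. By that rule 20.7% of the 16456 genes tested were called, 10.9% higher and 9.83% lower. The median log2 change of the 10 genes was -0.59, against -0.08 over all genes tested. CPM ranges did not overlap for 9 of the 10 genes, 4 higher and 5 lower, against 48.7% of all genes tested (17% higher, 31.7% lower). In bulk RNA, fewer cells that express a gene and less of its RNA per cell cannot be told apart.

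Tcf7, which encodes TCF1, was at 83.8, 86.1 and 68.1 CPM in the 3 LrNK WT samples (replicate 1, replicates 2 and 4 summed, replicate 3) and at 353, 332 and 378 in cNK WT. The groups lay far apart, and Tcf7 was 4.2-fold lower in LrNK (log2 change -2.07 ± 0.15 SE; adjusted p = 0.000459, edgeR). Its relative Lef1 was at 8.56, 12.2 and 8.22 CPM in LrNK WT and at 46.9, 53.4 and 42.8 in cNK WT. No LrNK value came near a cNK value, and the fold was 4.62 (log2 change -2.21 ± 0.24; adjusted p = 0.00212, edgeR).

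Myb encodes a factor that progenitors need to proliferate. It was at 0, 0.408 and 0 CPM in LrNK WT and at 29.1, 25.1 and 35.4 in cNK WT. Over all LrNK WT libraries it had 30 counts, against 5719 in cNK WT; the 0 counts allow up to 0.0705 and 0.0768 CPM in LrNK WT 1 and 3, from counting error alone. Both samples at 0 were among those with few detected genes; the part of gene detection in this result was not tested. The fitted log2 change was -7.38 ± 1.20 (adjusted p = 0.00875, edgeR), and without cNK WT 3 the adjusted p was 0.061. Without the summed replicates 2 and 4, which hold all 30 counts, the fitted value was -13.68; LrNK WT is then at 0, so this value is no measure of size.

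Satb1, whose product organises chromatin in T cells, was at 179, 170.4 and 149.7 CPM in LrNK WT and at 356, 361 and 366 in cNK WT. The groups did not overlap, with a 2.04-fold lower level in LrNK (log2 change -1.03 ± 0.12; adjusted p = 0.00254, edgeR). Id3, the 1 factor of the list that was higher in LrNK, encodes an inhibitor of E proteins. It was at 46.1, 45.5 and 111 CPM in LrNK WT and at 1.28, 1.5 and 1.48 in cNK WT. LrNK WT 3 stood above the other LrNK WT samples, and all 3 stood far above cNK, a 49.9-fold difference (log2 change 5.64 ± 0.43; adjusted p = 0.000598, edgeR).

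Sequences of 3 of these factor genes that were lower together in LrNK WT are shown because they allow a look at what stands before their start sites. Each is the 250 bases before the first transcript start that RefSeq lists (build GRCm38.p6), 5′ to 3′ on the gene's strand. None overlaps a GENCODE exon of its own gene, and exons of other genes were not searched. Capitals mark AACNG, a motif of MYB proteins, on either strand (CNGTT where it lies on the other strand).
Lef1: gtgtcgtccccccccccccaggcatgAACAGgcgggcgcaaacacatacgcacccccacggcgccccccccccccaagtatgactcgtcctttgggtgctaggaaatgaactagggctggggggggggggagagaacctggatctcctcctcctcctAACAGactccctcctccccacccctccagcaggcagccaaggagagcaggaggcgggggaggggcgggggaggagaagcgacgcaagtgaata
Myb: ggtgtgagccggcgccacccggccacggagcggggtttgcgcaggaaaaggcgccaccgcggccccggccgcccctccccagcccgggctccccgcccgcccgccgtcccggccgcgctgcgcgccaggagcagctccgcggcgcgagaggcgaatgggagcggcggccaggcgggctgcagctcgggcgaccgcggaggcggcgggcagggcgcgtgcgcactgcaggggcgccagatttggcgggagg
Satb1: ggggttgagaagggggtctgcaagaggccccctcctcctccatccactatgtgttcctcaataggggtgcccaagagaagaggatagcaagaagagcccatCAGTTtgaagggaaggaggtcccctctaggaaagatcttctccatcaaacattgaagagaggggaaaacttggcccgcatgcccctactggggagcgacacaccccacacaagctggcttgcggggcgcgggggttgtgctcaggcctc

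The Lef1 stretch lies at chr3:131110047-131110296 on the plus strand, the Myb stretch at chr10:21160985-21161234 on the minus strand and the Satb1 stretch at chr17:51833291-51833540 on the minus strand. GENCODE starts Lef1 further downstream, at 131110471. GC content was 66.4%, 81.2% and 58% in that order. AACNG was found 2 times before Lef1, 0 times before Myb and 1 time before Satb1, and 74.2% of the 32851 stretches of this length in the table hold it at least once. The E-box CANNTG, which E proteins bind, was found 1 time before Lef1 and in neither of the others, against 66.2% of all stretches. The TCF and LEF motif CTTTGAT was in none of these 3 stretches and in 3.21% of all. Among the 8 genes of the list with an entry, it occurred only in a stretch of Emb. That stretch (chr13:117220323-117220572, plus strand) overlaps 1 GENCODE exon of Emb. It lies inside the gene, which starts at 117208536, and not before it. Both strands were searched, overlapping matches of different motifs were allowed, and a match is a description, not a bound site. Cd93 and Thy1 had no entry.

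Of the cytokine receptor genes, Kit was lower and Il7r higher in LrNK WT. Kit was at 24.1, 20.8 and 18.7 CPM in LrNK WT and at 76.7, 73.3 and 85.6 in cNK WT, with wide separation and a 3.50-fold lower level in LrNK (log2 change -1.81 ± 0.14; adjusted p = 0.000662, edgeR). Il7r, which encodes the alpha chain shared by the IL-7 and TSLP receptors, was at 104, 89.8 and 63.2 CPM in LrNK WT and at 49.0, 36.6 and 48.3 in cNK WT. The lowest LrNK sample, WT 3, was above the highest cNK sample, and the log2 change was 1.03 ± 0.22 (adjusted p = 0.0222, edgeR). This call was lost without LrNK WT 1 (0.87 ± 0.23, adjusted p = 0.051) and without any 1 of the cNK WT libraries (adjusted p = 0.087, 0.11 and 0.095).

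Cd93 encodes a C-type lectin-like receptor of early progenitors, endothelium and myeloid cells. It was at 46.1, 32.4 and 33.5 CPM in LrNK WT and at 1.53, 1.28 and 1.83 in cNK WT, a 25.5-fold difference with no overlap (log2 change 4.67 ± 0.25; adjusted p = 0.000163, edgeR). Thy1, a glycolipid-anchored protein of T cells and innate lymphoid cells, was at 577, 560.2 and 460.3 CPM in LrNK WT and at 312, 286 and 317 in cNK WT. Every LrNK sample was above every cNK sample (log2 change 0.89 ± 0.14; adjusted p = 0.00740, edgeR), but the call was lost without cNK WT 1, 2 or 3 (adjusted p = 0.057, 0.062 and 0.056). Emb encodes embigin, a chaperone of monocarboxylate transporters. It was at 61.8, 88.4 and 119 CPM in LrNK WT and at 107, 96.8 and 111 in cNK WT, overlapping (log2 change -0.14 ± 0.23; adjusted p = 0.739, edgeR).

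Markers of other cells moved with cell type beside these differences. Myeloid cells and endothelium are known to express Cd93, and 8 neutrophil and monocyte markers summed to 2657, 758 and 4551 CPM in LrNK WT, against 685 to 820 in cNK WT. Within that list Lyz2 was at 520.3 to 3532 CPM in LrNK WT and 12 to 16.3 in cNK WT, while Ly6g was at 0 in 8 of the 13 libraries and at no more than 0.112 CPM in LrNK. Ccr2 made up 610 to 708 CPM of the sum in cNK WT and 90.6 to 380 in LrNK WT. Cd93 was at 46.1, 32.4 and 33.5 CPM in the LrNK WT samples with 2657, 758 and 4551 CPM of these markers. Summed endothelial markers were 101 to 145 CPM in LrNK WT and 104 to 108 in cNK WT, but 1 gene, Pecam1, made up 78.3 to 98.3 and 98.9 to 102 CPM of this. Of the endothelial genes, 2 of 5 tested were higher in LrNK WT and 0 lower, and within the label CD8KO 6 of 8 were higher and 0 lower. Among them Eng was at 13.1 to 31.4 CPM in LrNK WT and 0.523 to 0.897 in cNK WT. Erythroid markers summed to 133 to 932 CPM in LrNK WT and 2.58 to 4.73 in cNK WT (4 of 4 tested higher), and hepatocyte markers to 16.8 to 52.0 and to no more than 0.168 (4 of 5 tested higher). T cells express Tcf7, Lef1, Satb1, Il7r and Thy1: 10 T cell markers summed to 805 to 1107 CPM in LrNK WT and 404 to 451 in cNK WT, and within them Cd3e was at 14.1 to 34.1 and 3.18 to 3.90. Most of the T cell sum was Trbc1, at 387 to 601 CPM in LrNK WT and 272 to 315 in cNK WT, and Trbc2, at 311 to 397 and 87.9 to 89.9. Progenitors express Kit: 7 stem and progenitor markers summed to 9.03 to 20.8 CPM in LrNK WT and 4.0 to 4.48 in cNK WT. Mast cells express Kit too: 9 mast cell markers summed to 3.88 to 6.71 CPM in LrNK WT and 156 to 190.2 in cNK WT, but in cNK WT Cma1, which mature NK cells also express in mice, made up 154 to 188 CPM of this. Mcpt4 and Tpsab1, which define mast cells, were at 0 in all 13 libraries. Kupffer cell markers summed to 88.9 to 260.3 CPM in LrNK WT and 130.3 to 172.2 in cNK WT (1 of 7 tested higher, 0 lower). Within them Clec4f was at 2.87 to 20.8 CPM in LrNK WT and at 0 in cNK WT. The part of such cells in the results for the 10 genes, Id3 among them, was not tested.

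**Figure D2:**
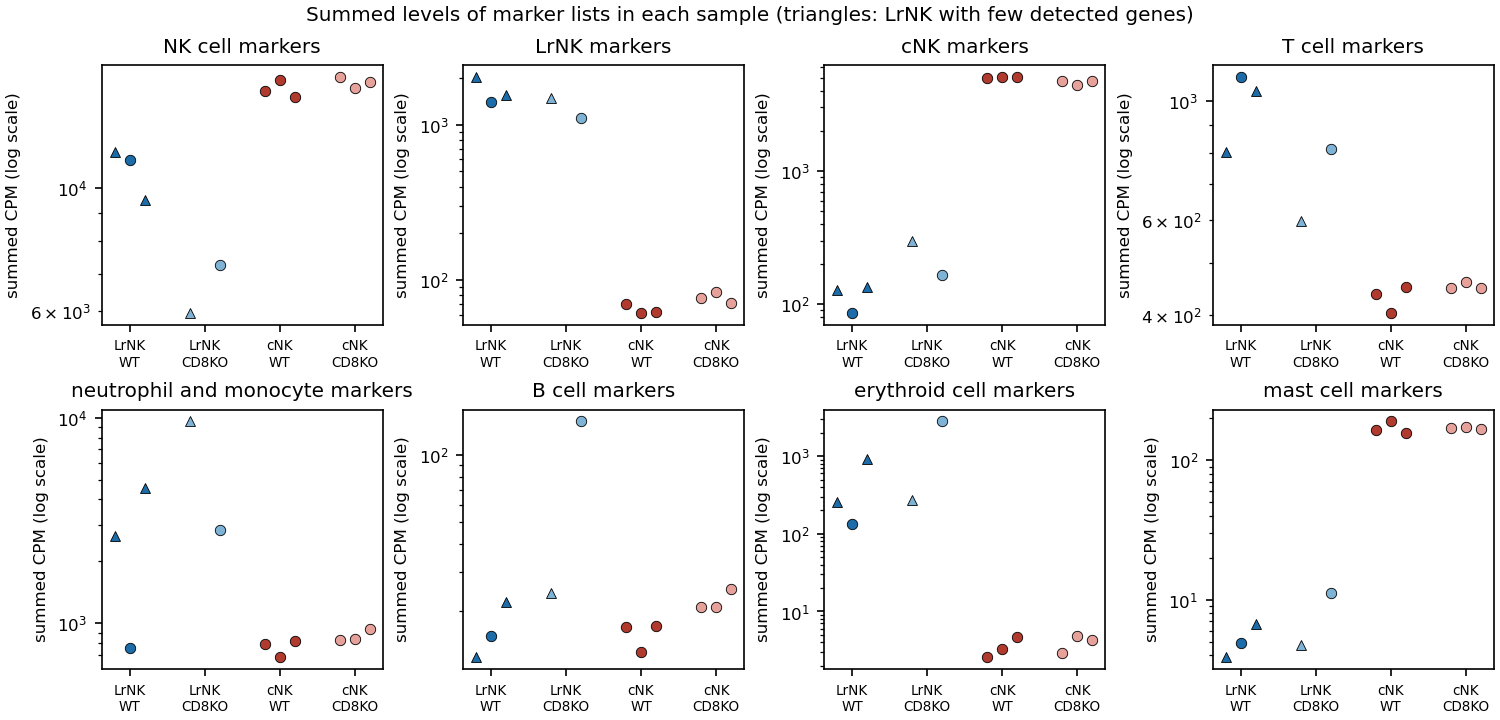
Each panel plots the summed CPM of 1 marker list on a log axis; each point is 1 sample, and triangles are the LrNK samples with few detected genes. LrNK and cNK markers separate the cell types, and the neutrophil and monocyte sum ranges from 758 to 9592 CPM among the LrNK samples.

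The same cell types were compared within the label CD8KO (2 LrNK and 3 cNK samples), where 7 of the 10 genes were called, 3 higher and 4 lower, against 27% of 17795 genes tested (15.4% higher, 11.6% lower). CPM ranges did not overlap for 9 of 10 genes, 4 higher and 5 lower, against 61.7% of all genes tested (23.3% higher, 38.4% lower), and Emb was again the exception. Scaling by plain library totals in place of TMM moved the median of all genes by -0.13 here and changed no call among the 10 genes.

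Among the factors, Tcf7 was at 106 and 150.2 CPM in LrNK labelled CD8KO and at 380.3, 393 and 339.7 in cNK labelled CD8KO (log2 change -1.40 ± 0.21; adjusted p = 0.00728, edgeR). Lef1 was at 8.74 and 19.2 CPM in LrNK and at 49.2, 55.5 and 51.5 in cNK (log2 change -1.74 ± 0.37; adjusted p = 0.0224, edgeR). Satb1 was at 119 and 171 CPM in LrNK and at 364, 383 and 358 in cNK (log2 change -1.21 ± 0.20; adjusted p = 0.0111, edgeR). The cell types stayed apart for all 3 genes, but without any 1 of the cNK libraries the adjusted p rose to 0.085 to 0.089 for Lef1 and to 0.056 to 0.060 for Satb1. Lef1 was at -1.27 without LrNK labelled CD8KO 1 and at -2.53 without the summed replicates 2 and 3.

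Id3 was at 79.3 and 185 CPM in LrNK labelled CD8KO and at 1.69, 1.81 and 1.63 in cNK labelled CD8KO, an 85.6-fold difference (log2 change 6.42 ± 0.44; adjusted p = 0.000775, edgeR). The LrNK samples differed more than 2-fold between themselves and both were far above cNK. The change was 6.92 without LrNK labelled CD8KO 1 and 5.58 without the summed replicates 2 and 3. Myb was at 0 and 2.72 CPM in LrNK and at 25.6, 27.7 and 33.5 in cNK, and it missed the threshold (log2 change -4.13 ± 1.26; adjusted p = 0.0631, edgeR). The value depended on which LrNK sample was kept: it was -3.25 without LrNK labelled CD8KO 1, where Myb had 0 counts, and -13.50, with LrNK at 0, without the summed replicates 2 and 3, and both were then called (adjusted p = 7.7e-09 and 4.1e-10, with the lone LrNK sample assumed to vary like the cNK samples).

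Kit was at 45.4 and 37.8 CPM in LrNK labelled CD8KO and at 84.0, 80.4 and 76.7 in cNK labelled CD8KO, 1.78-fold lower in LrNK (log2 change -0.83 ± 0.11; adjusted p = 0.00553, edgeR). Il7r was at 93.1 and 69.7 CPM in LrNK and at 49.1, 56.2 and 41.4 in cNK (log2 change 0.85 ± 0.17; adjusted p = 0.0199, edgeR), and without any 1 of the cNK libraries its adjusted p was 0.052 to 0.094. Both receptor genes kept their order between the cell types, without overlap.

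Cd93 was at 107 and 68.3 CPM in LrNK labelled CD8KO and at 1.56, 3.50 and 3.22 in cNK labelled CD8KO, a 34.3-fold difference (log2 change 5.10 ± 0.39; adjusted p = 0.00100, edgeR). Thy1 was at 443 and 548 CPM in LrNK and at 379, 401 and 388 in cNK, apart but not called (log2 change 0.48 ± 0.14; adjusted p = 0.0592, edgeR). Without LrNK labelled CD8KO 1 it was called at 0.66 ± 0.06 (adjusted p = 2.0e-06) and without the summed replicates 2 and 3 at 0.23 ± 0.07 (adjusted p = 0.0078). Emb was at 165 and 107 CPM in LrNK and at 124, 133 and 108 in cNK, overlapping (log2 change 0.27 ± 0.19; adjusted p = 0.344, edgeR). Its value was -0.03 without LrNK labelled CD8KO 1 and 0.48 ± 0.10 without the summed replicates 2 and 3 (adjusted p = 0.0010).

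**Figure D3:**
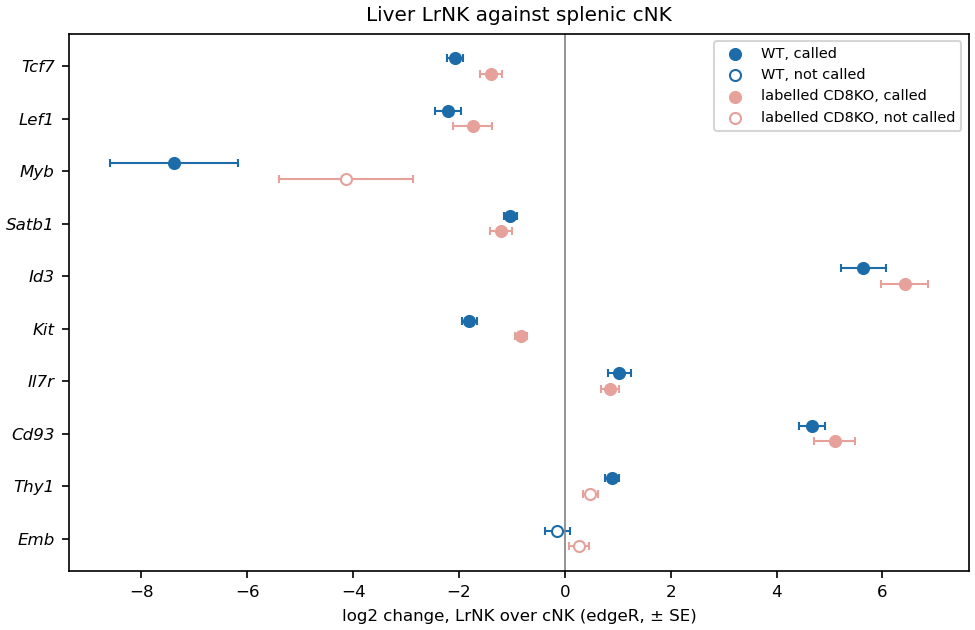
The horizontal axis is the log2 change of LrNK over cNK with its SE, for 1 gene a line, in WT (blue, 3 and 3 samples) and labelled CD8KO (pink, 2 and 3 samples); filled points were called. Tcf7, Lef1, Satb1 and Kit lie left of 0 and filled in both labels, Id3, Il7r and Cd93 right of 0 and filled in both, and Myb and Thy1 are filled in WT alone.

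Levels of different genes were set side by side as CPM per kilobase of exon. In LrNK WT the order was Thy1 (178), Id3 (37.8), Tcf7 (30.2), Il7r (18.4), Emb (13), Satb1 (8.75), Cd93 (5.59), Kit (2.38), Lef1 (1.10) and Myb (0.0152). Id3 and Tcf7 overlapped in their ranges, as did Il7r with Emb and Emb with Satb1. In cNK WT Tcf7 led (135), followed by Thy1 (102), Satb1 (19), Emb (15.2), Il7r (9.57), Kit (8.81), Lef1 (5.43), Myb (3.34), Id3 (0.792) and Cd93 (0.232), and only Il7r and Kit overlapped. The gene at the top thus differed between the cell types, and Id3 and Cd93, second and seventh in LrNK WT, were the lowest of the list in cNK WT.

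In LrNK labelled CD8KO the levels per kilobase were 165 for Thy1, 73.9 for Id3, 48.9 for Tcf7, 19.7 for Emb, 17.5 for Il7r, 13.2 for Cd93, 7.61 for Satb1, 4.67 for Kit, 1.59 for Lef1 and 0.152 for Myb. Neighbours overlapped for Id3 and Tcf7, Emb and Il7r, and Il7r and Cd93. In cNK labelled CD8KO they were 141 for Tcf7, 129.9 for Thy1, 19.3 for Satb1, 17.6 for Emb, 10.5 for Il7r, 9.02 for Kit, 5.92 for Lef1, 3.24 for Myb, 0.953 for Id3 and 0.413 for Cd93. Tcf7 and Thy1 overlapped there, as did Satb1 with Emb and Il7r with Kit.

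The wider pathways of these genes were described with lists, by counts and medians alone. The counts below stand against the shares of all genes tested. In LrNK WT against cNK WT, 10.9% were called higher and 9.83% lower. Within the label CD8KO, 15.4% were called higher and 11.6% lower. Among 20 tested partners of TCF1 and LEF1 and genes of the Wnt pathway, 4 were higher and 3 lower in LrNK WT (median log2 change -0.07, against -0.08 over all genes). Lrp5 and Lrp6 encode paired Wnt coreceptors and went opposite ways: Lrp5 was 16.7-fold higher in LrNK WT (log2 change 4.07 ± 0.18; adjusted p = 8.3e-05, edgeR), while Lrp6 had a log2 change of -1.23 ± 0.14 (adjusted p = 0.00220). Tle2, a Groucho corepressor gene, was higher (4.05 ± 0.51; adjusted p = 0.00331) and Bcl9l, a beta-catenin cofactor gene, lower (-1.61 ± 0.31; adjusted p = 0.0156). Within the label CD8KO, 6 of 20 were higher and 4 lower in LrNK, with Lrp5 at 4.44 ± 0.23 and Tle2 at 3.87 ± 0.29 (adjusted p = 0.000397 and 0.000994).

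Of 13 tested genes that go with TCF1 in naive or memory-like lymphocytes, 3 were lower and 2 higher in LrNK WT, with a median of -0.53. S1pr1, the receptor gene for exit into blood, was lower in LrNK WT (log2 change -6.16 ± 1.06; adjusted p = 0.0104, edgeR), and the chemokine gene Xcl1 higher (3.26 ± 0.44; adjusted p = 0.00452). Within the label CD8KO, 3 of 14 were higher and 2 lower, and Slamf6 was lower (-2.56 ± 0.42; adjusted p = 0.00982).

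Of 8 tested genes of ID and E proteins and their partners, 2 were higher and 1 lower in LrNK WT, and 3 were higher and 2 lower within the label CD8KO. The E protein gene Tcf4 was lower in LrNK WT (-0.78 ± 0.14; adjusted p = 0.0133, edgeR). Id2, the ID gene that NK cells depend on, was at 598 to 759.7 CPM in LrNK WT and 758 to 826 in cNK WT, and it was lower in LrNK within the label CD8KO (-0.54 ± 0.11; adjusted p = 0.0197). That is the opposite direction to Id3. Id1 stood at 9.43 and 17.1 CPM in LrNK labelled CD8KO and at 0.235 to 0.367 in cNK labelled CD8KO (adjusted p = 0.000834). Of 17 tested partners and paralogs of MYB and SATB1, 2 were higher and 4 lower in LrNK WT, and 0 higher and 5 lower within the label CD8KO. Runx2 (-1.39 ± 0.17; adjusted p = 0.00293) and Ikzf3 (-0.99 ± 0.19; adjusted p = 0.0150), both lymphocyte transcription factor genes, were lower in LrNK WT, and Gata3 was higher (0.86 ± 0.10; adjusted p = 0.00293).

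Of 18 tested genes of IL-7 receptor signalling, 8 were higher and 1 lower in LrNK WT (median 0.64), and 10 were higher and 1 lower within the label CD8KO (median 0.43). Those with the largest positive change were feedback inhibitors of STAT signalling: in LrNK WT Cish was 13.7-fold, Socs2 8.04-fold and Socs1 5.89-fold higher (adjusted p = 7.8e-05, 0.000220 and 0.00238, edgeR). Jak1, the kinase gene of the receptor, was the 1 that was lower in LrNK WT (log2 change -1.55 ± 0.16; adjusted p = 0.00188). Within the label CD8KO, Cish (3.43 ± 0.11; adjusted p = 0.000123) and Socs3 (2.27 ± 0.12; adjusted p = 0.000424) led. Many cytokines other than IL-7 are known to induce these inhibitors. Of 20 tested genes of KIT signalling, 4 were higher and 3 lower in LrNK WT, and 9 were higher and 3 lower within the label CD8KO. Among them the kinase genes Fyn and Lyn went opposite ways in LrNK WT, with log2 changes of -1.50 ± 0.22 and 1.08 ± 0.29 (adjusted p = 0.00608 and 0.0420).

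Of 9 tested relatives and ligands of CD93 and THY1, 5 were higher and 1 lower in LrNK WT (median 2.04), and of 10 tested within the label CD8KO 8 were higher and 1 lower (median 3.08). The integrin gene Itgb3 was higher in LrNK WT (2.04 ± 0.13; adjusted p = 0.000271, edgeR) and Itgam, the CD11b gene that mature NK cells gain, was lower (-3.03 ± 0.30; adjusted p = 0.00155). The small list of 5 embigin partners and paralogs had 1 higher and 1 lower gene in LrNK WT, Slc16a3 (2.35 ± 0.31; adjusted p = 0.00397) and Nptn (-0.55 ± 0.14; adjusted p = 0.0389). Within the label CD8KO, 2 were higher and 0 lower.

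Of 18 tested regulators of NK precursors and innate lymphoid cells, 7 were higher and 1 lower in LrNK WT (median 0.40), and of 19 tested within the label CD8KO 12 were higher and 1 lower (median 1.17). The 1 lower gene in both was Eomes, at 0.494 to 4.73 CPM in LrNK WT and 640 to 670.1 in cNK WT (log2 change -7.99 ± 0.86; adjusted p = 0.00204, edgeR). Bcl11b, a T cell and innate lymphoid factor gene, was higher (2.79 ± 0.15; adjusted p = 0.000164). Flt3, a progenitor and dendritic cell receptor gene, was at 4.53 to 17.2 CPM in LrNK WT and at no more than 0.0874 in cNK WT, and 6 dendritic cell markers, Flt3 among them, summed to 32.8 to 115 CPM in LrNK WT and 7.08 to 8.93 in cNK WT. Genes of terminal NK maturation stood against the members' mixed picture: 10 of 12 were lower and 1 higher in LrNK WT (median -1.84), and 7 were lower and 1 higher within the label CD8KO (median -1.29). Klrg1 (-5.29 ± 0.57; adjusted p = 0.00207) and S1pr5 (-5.15 ± 0.33; adjusted p = 0.000293) were among the lower genes in LrNK WT.

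**Figure D4:**
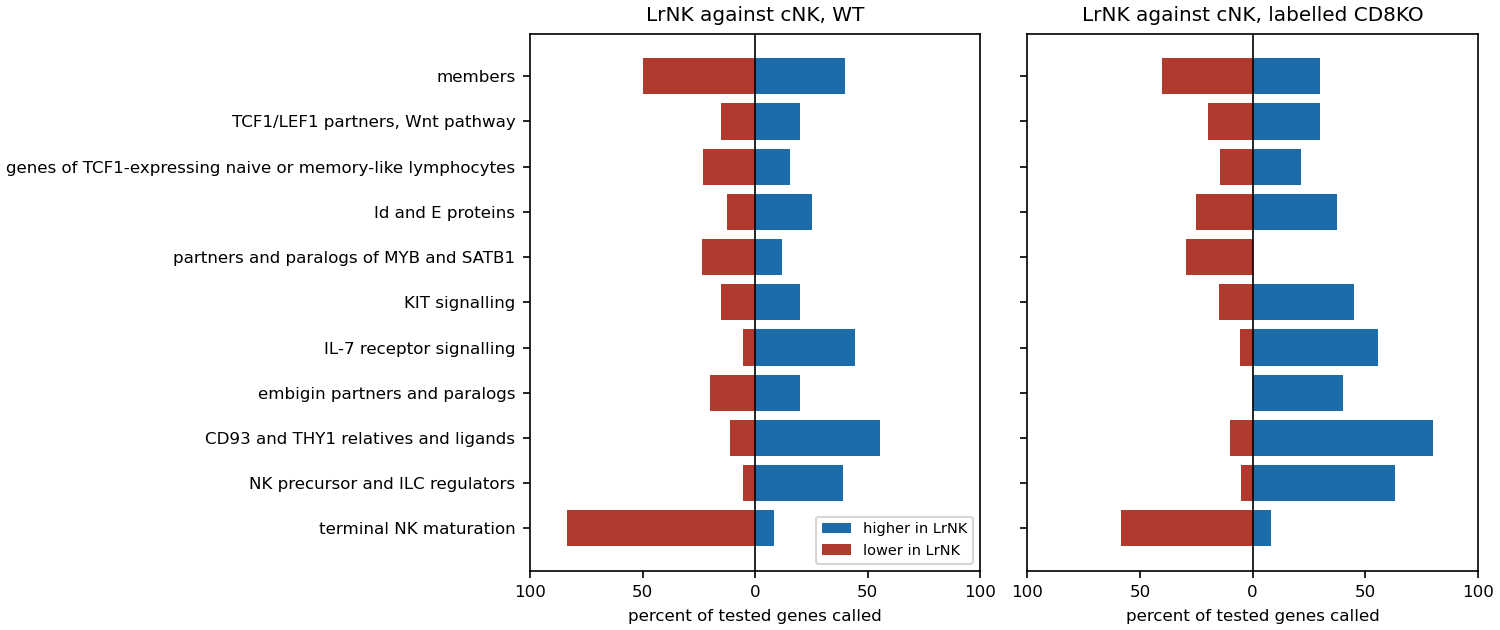
Bars give the percent of each list's tested genes that were called higher (blue, right) or lower (red, left) in LrNK than in cNK, in WT (left panel) and in labelled CD8KO (right panel). Terminal maturation genes extend mostly left, IL-7 receptor signalling mostly right, and the 10 genes described here extend both ways.

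Within LrNK, labelled CD8KO against WT (2 and 3 samples), none of the 10 genes was called, against 0% of 16504 genes tested. Over all genes edgeR gave 615 at an unadjusted p under 0.05, DESeq2 called 62 and limma's voom 0. The spread between LrNK samples was wide, a biological coefficient of variation of 98.2%, against 9.60% in cNK. CPM ranges were apart and higher in labelled CD8KO for 3 of the 10 genes (Tcf7, Kit and Cd93), and lower for 0. Of all genes tested, 18.3% were apart, 9.84% higher and 8.47% lower. The median log2 change of the 10 was 0.66, against 0.02 over all genes.

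Cd93 averaged 37.3 ± 7.61 CPM (SD, n = 3) in LrNK WT and 87.8 ± 27.7 (n = 2) in LrNK labelled CD8KO, with both labelled CD8KO samples above all 3 WT samples. The log2 change was 1.24 ± 0.26 (unadjusted p = 0.00223, adjusted p = 1.00, edgeR), and DESeq2 gave 1.26 ± 0.33 with an adjusted p of 0.035. Kit averaged 21.2 ± 2.72 CPM in WT and 41.6 ± 5.40 in labelled CD8KO, also without overlap (0.98 ± 0.26; unadjusted p = 0.00657, adjusted p = 1.00, edgeR). Where the 4 groups shared 1 spread, Kit was called at 1.01 ± 0.14 (adjusted p = 0.015). Tcf7 averaged 79.3 ± 9.78 CPM in WT and 128 ± 31 in labelled CD8KO (0.72 ± 0.27; unadjusted p = 0.0345, adjusted p = 1.00, edgeR). These 3 genes held the only non-overlapping ranges among the 10.

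The other 7 genes overlapped between the labels in LrNK. Id3 averaged 67.6 ± 37.8 CPM in WT and 132 ± 75.0 in labelled CD8KO (log2 change 1.02 ± 0.52), and Emb 89.6 ± 28.4 and 136 ± 40.7 (0.60 ± 0.33). Lef1 averaged 9.66 ± 2.21 and 14.0 ± 7.42 CPM (0.56 ± 0.53) and Myb 0.136 ± 0.235 and 1.36 ± 1.92 (3.27 ± 3.22). Without the summed labelled CD8KO replicates 2 and 3, Lef1 was at -0.22, Myb at -5.83 and Id3 at 0.18. The direction of the Lef1 and Myb values in the main fit thus rests on that sample. LrNK labelled CD8KO then has 0 counts of Myb, so -5.83 is no measure of size. Among the LrNK samples with few detected genes (1 against 2), Id3 was at 0.02. Satb1, Il7r and Thy1 had changes of -0.17 ± 0.27, -0.07 ± 0.28 and -0.08 ± 0.25. All 7 had an adjusted p of 1.00 in edgeR, which does not show that the levels are alike.

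Marker sums differed between the labels in LrNK as well. The 9 NK cell markers summed to 9508 to 11610 CPM in WT and to 5948 and 7244 in labelled CD8KO. Neutrophil and monocyte markers summed to 758 to 4551 CPM in WT and to 9592 and 2846 in labelled CD8KO, which overlap, and stem and progenitor markers to 9.03 to 20.8 and to 41.1 and 22.1. In labelled CD8KO, Cd93 was at 107 CPM in the sample with 9592 CPM of myeloid markers and at 68.3 CPM in the other. Over these 2 samples Kit, Il7r and Emb had the same order, and Tcf7, Lef1, Id3, Myb, Satb1 and Thy1 the reverse. Myeloid sums of 2657, 758 and 4551 CPM in the 3 LrNK WT samples stood beside 46.1, 32.4 and 33.5 CPM of Cd93. T cell markers summed to 805 to 1107 CPM in WT and to 599 and 814 in labelled CD8KO. Most of these sums was Trbc1, at 387 to 601 CPM in WT and 256 to 387 in labelled CD8KO, and Trbc2, at 311 to 397 and 188 to 223. Trac, Cd4 and Cd6 went the other way, higher in labelled CD8KO without overlap. The 9 tested T cell genes had a median log2 change of 0.38, with 0 called. Sums also lay apart for cNK markers (86.2 to 136 CPM in WT, 300.1 and 166 in labelled CD8KO), B cell markers (12.5 to 22.1, and 24.1 and 142), plasma cell markers (1.93 to 21.1, and 40.5 and 30.1) and ILC2 markers (129 to 146, and 79.0 and 113). In the ILC2 sums, however, Gata3 alone made up 128 to 146 CPM in WT and 74.7 to 108 in labelled CD8KO. The 4 tested ILC2 genes had a median log2 change of 1.78, with 0 called. The summed labelled CD8KO replicates 2 and 3, which hold the higher Lef1, Myb and Id3 values, had the 142 CPM of B cell markers and 2813 CPM of erythroid markers, against 133 to 932 in WT. Their part in the results was not tested.

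Within cNK, labelled CD8KO against WT (3 and 3 samples), Thy1 was the 1 gene of the 10 that was called, against 1.31% of 16619 genes tested (0.499% higher, 0.812% lower). Thy1 was at 312, 286 and 317 CPM in WT and at 379, 401 and 388 in labelled CD8KO. All 3 labelled CD8KO samples were above all WT samples, and the fold was 1.27 (log2 change 0.35 ± 0.05; adjusted p = 0.00108, edgeR). It kept this call without any 1 library and lost it where the 4 groups shared 1 spread (0.35 ± 0.13; adjusted p = 1). T cells carry Thy1: T cell markers summed to 404 to 451 CPM in WT and 449 to 461 in labelled CD8KO, with Cd3e at 3.18 to 3.90 and 4.51 to 5.47, and B cell markers to 13.2 to 17.2 and 20.8 to 25.2. Their part in the Thy1 difference was not tested.

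Cd93 was at 1.53, 1.28 and 1.83 CPM in cNK WT and at 1.56, 3.50 and 3.22 in cNK labelled CD8KO, where 2 samples stood above WT and 1 among the WT values (log2 change 0.84 ± 0.27; adjusted p = 0.184, edgeR). Without cNK labelled CD8KO 1 it was called at 1.11 ± 0.22 (adjusted p = 0.023). Emb was at 107, 96.8 and 111 CPM in WT and at 124, 133 and 108 in labelled CD8KO (0.21 ± 0.07; adjusted p = 0.206, edgeR), and without cNK labelled CD8KO 3 it was called at 0.30 ± 0.06 (adjusted p = 0.030). Id3 was at 1.28 to 1.5 CPM in WT and 1.63 to 1.81 in labelled CD8KO, apart by a small margin (0.26 ± 0.22; adjusted p = 0.684, edgeR). With Thy1 it made 2 of 10 genes whose ranges were apart, both higher in labelled CD8KO, against 18% of all genes tested (9.68% higher, 8.35% lower).

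The remaining 6 genes differed little between the labels in cNK. Their log2 changes were 0.06 ± 0.06 for Tcf7, 0.12 ± 0.08 for Lef1, -0.05 ± 0.11 for Myb, 0.02 ± 0.04 for Satb1, 0.03 ± 0.06 for Kit and 0.13 ± 0.11 for Il7r, with adjusted p from 0.586 to 0.899 in edgeR. In the wider lists single genes were called in cNK: Tle1 (-0.76 ± 0.14; adjusted p = 0.0138, edgeR), Xcl1 (-0.31 ± 0.06; adjusted p = 0.0245), Sdc4 (-0.60 ± 0.08; adjusted p = 0.00153), Hes1 (-0.51 ± 0.10; adjusted p = 0.0226) and Ly6c2 (-0.36 ± 0.08; adjusted p = 0.0334) were lower in labelled CD8KO, and Cbfa2t3 (0.38 ± 0.06; adjusted p = 0.00358) was higher. The lists of MYB and SATB1 partners, KIT signalling, IL-7 receptor signalling and embigin partners had 0 called genes there, and in LrNK all 10 lists had 0.

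**Figure D5:**
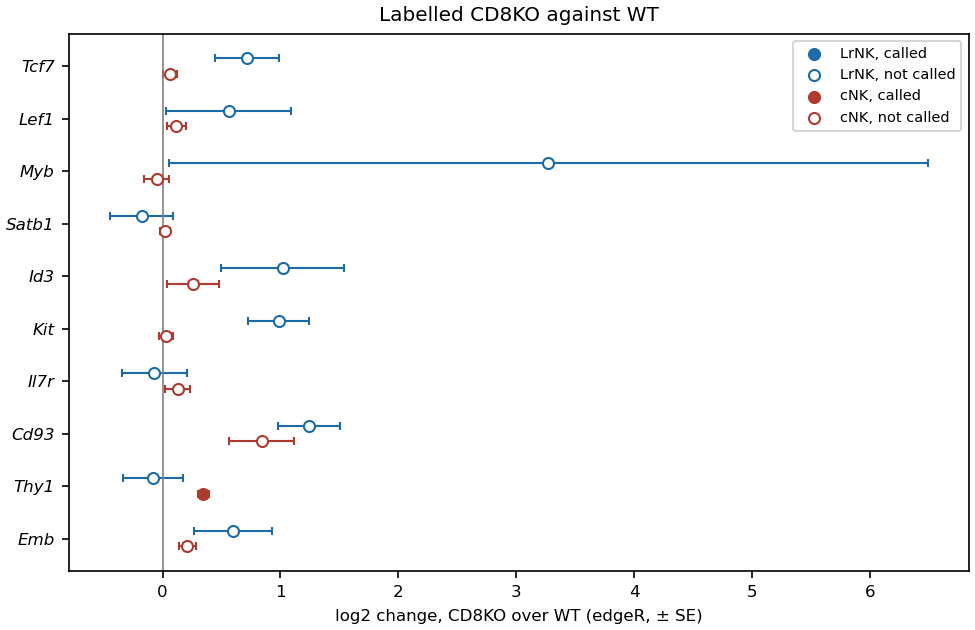
The horizontal axis is the log2 change of labelled CD8KO over WT with its SE, for 1 gene a line, in LrNK (blue, 2 and 3 samples) and cNK (red, 3 and 3 samples); filled points were called. Thy1 in cNK is the only filled point, and the LrNK bars are wider than the cNK bars for all 10 genes except Cd93.

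Whether the label's difference itself differed between LrNK and cNK was tested over all 4 groups. None of the 10 genes was called, against 0.0415% of 19287 genes tested (0.00518% higher, 0.0363% lower; 8 genes, with 1628 at an unadjusted p under 0.05, 337 called by DESeq2 and 3 by voom). Kit came closest: its label difference was 0.98 ± 0.26 in LrNK and 0.03 ± 0.06 in cNK, and the difference between them was 0.98 ± 0.19 (unadjusted p = 0.000295, adjusted p = 0.167, edgeR). Kit was called by DESeq2 (0.98, adjusted p = 0.00010) and by edgeR without LrNK WT replicates 2 and 4 (1.02, adjusted p = 0.027) or without LrNK labelled CD8KO replicates 2 and 3 (1.04, adjusted p = 0.046). Tcf7 had a difference of 0.68 ± 0.24 (adjusted p = 0.474) and Thy1 of -0.41 ± 0.20 (adjusted p = 0.630). The other 7 genes had adjusted p from 0.662 to 1.00.

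Finally, the genes with the most similar pattern to each of the 10 were looked up among 9740 genes, as Pearson's r of log2(CPM + 0.5) over the 11 samples. The samples fall into LrNK and cNK, so r mostly carries that contrast and is given as a description. The closest genes were Fam53b for Tcf7 (r = 0.993), Phactr3 for Lef1 (0.994), Raph1 for Myb (0.998), Ctla2a for Satb1 (0.997) and Marcksl1 for Id3 (0.997). For the receptors and surface proteins they were Plek for Kit (0.989), Slc25a10 for Il7r (0.956), Irf2bp2 for Cd93 (0.989), Spred2 for Thy1 (0.985) and Il18 for Emb (0.923). Second were Gramd4, Smad3, Phactr3, Tubgcp6 and Il1b for the factors in the same order, and Hdac10, Dexi, Myo7a, Ifi27 and Zfp414 for the others. Phactr3 was near both Lef1 and Myb, at means of 0.0906 CPM in LrNK WT and 54.8 in cNK WT. Il1b, a myeloid cytokine gene, had means of 61.0 and 0.355 CPM there, beside Id3. Emb had the weakest match of the 10.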

How the data were processed

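Per the labels, RNA of sorted NK cells was made into libraries with a TruSeq kit, and the authors deposited 1 file of gene counts for each of 13 libraries. HISAT2 2.1.0 and the build GRCm38 are named in the submitters' processing notes. How reads were counted, and with which annotation and strand setting, is not given in the sources used here, so reads of overlapping and antisense genes, which share exons with Lef1, Myb, Emb and Satb1, cannot be told apart. Among counts of 1 to 20, the share of even numbers was 49.5% to 65.2%, which was left as it is. Of 54532 identifiers, 54495 matched GENCODE M21.

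From these counts, edgeR 4.0.16 (R 4.3.3) was run with TMM scaling, filterByExpr (minimum count 10, minimum total 15) and the quasi-likelihood test, fitted on the 2 groups compared, or on 4 for the difference between cell types. Benjamini-Hochberg adjustment ran over all genes tested. DESeq2 1.42.0, limma 3.58.1 (voom with sample quality weights), other scalings, no filter, separate libraries, a replicate block, LrNK libraries by number of detected genes, and leaving out each sample were alternatives; plain library totals were chosen after the data were seen. The test was checked on simulated data. Errors are SD for CPM and are called SE for log2 changes. In edgeR this SE is the size of the log2 change divided by the square root of the test's F statistic. It restates the test and is not a standard error of the fitted coefficient. For genes with few or no counts in a group, such as Myb in LrNK, it is no measure of precision. DESeq2 gives the standard error of its own fit, so its ± values are of another kind.

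The 10 genes and all lists were chosen with earlier results of these data known. Of a list, at most 4 called genes could be named, those with the largest changes among genes averaging 2 or more in log2 CPM. Other genes named are markers or check the labels. Tle5, on the Wnt list, had no row. Single values of some genes on the lists are not reported here.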

Additional observations from a re-analysis of the deposited data

How the results depend on the processing

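Under the alternatives, a value of the 10 genes counted as kept if it held its direction and side of the threshold. Values of 1 sample against 1 in LrNK by label had no test and counted as kept within 1 SE of the main value. Satb1 was kept in this way at 0.02, against -0.17 in the main fit. By this rule 134 of 148 values were kept in LrNK by label, 130 of 140 in cNK by label and 151 of 160 for LrNK against cNK in WT. Within the label CD8KO 122 of 150 were kept, and 181 of 200 for the difference between cell types. Where a value changed, the cause was not tested. Counts of genes called moved most.

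For LrNK labelled CD8KO against WT (0 genes called), 259 genes were called with no filter on low counts, 62 by DESeq2, 138 where the 4 groups shared 1 spread, 22 with each library as its own sample, 180 with the replicate block and 88 with the LrNK libraries of few detected genes. Of the 10 genes, 1 was called with no filter (Cd93), by DESeq2 (Cd93) and where the groups shared 1 spread (Kit). Il7r was at 0.18 in the libraries of few detected genes. Leaving out a sample gave -0.25 to 0.060 for Il7r, -0.22 to 1.06 for Lef1, -5.83 to 4.27 for Myb, -0.55 to 0.12 for Satb1 and -0.33 to 0.12 for Thy1. The lower end for Myb leaves LrNK labelled CD8KO at 0 counts, so it is no measure of size. The libraries with many detected genes left 1 against 1, a value with no test: 2.04 for Id3 (0.02 in the libraries of few) and -0.35 for Il7r. Id3 ranged from 0.18 to 1.56 without a sample.

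For cNK by label (218 genes called), 590 were called with no filter, 512 by DESeq2, 1 where the 4 groups shared 1 spread, 355 with the replicate block and 71 to 254 without 1 library. Of the 10 genes, 3 were called with no filter (Thy1, Cd93 and Emb), 0 where the groups shared 1 spread, and 1 to 2 without 1 library. Kit ranged from -0.012 to 0.084, Myb from -0.16 to 0.080 and Satb1 from -0.0069 to 0.046 without 1 library.

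For LrNK against cNK in WT (3414 genes), 1801 were called with the replicate block, 6856 and 11526 with the LrNK libraries of few and many detected genes, and 1021 to 6856 without 1 sample, where Emb ranged from -0.38 to 0.055 and 6 to 9 of the 10 genes were called. Within the label CD8KO (4804 genes), these counts were 2162, 13004, 10872 and 1688 to 13004. Of the 10 genes 4 to 10 were called without 1 sample. Emb was at -0.026 with the libraries of many detected genes and ranged from -0.026 to 0.48 without 1 sample. The replicate block moved Myb to -5.08 (called) and Il7r to 0.73 (adjusted p = 0.093).

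For the difference between cell types (8 genes), 337 were called by DESeq2, 3 by voom, 68 with each library as its own sample, 1968 and 2866 with the LrNK libraries of few and many detected genes, and 5 to 645 without 1 sample. Of the 10 genes, 1 was called by DESeq2, with separate libraries and with few detected genes (Kit), 6 with many detected genes and 0 to 1 without 1 sample. With few detected genes Id3 was at -0.21, Il7r at 0.062 and Lef1 at -0.022, and with many Satb1 was at 0.0086. Leaving out a sample gave -0.057 to 1.32 for Id3, -0.32 to 0.94 for Lef1, -6.28 to 9.54 for Myb and -0.55 to 0.10 for Satb1. Here too the lower end for Myb has LrNK labelled CD8KO at 0 counts and is no measure of size.

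Replicate numbers were not taken as pairs, since the labels tie them to nothing shared. Deviations of same-numbered samples correlated at 0.014 to 0.048 in cNK by label and -0.10 to -0.0099 for LrNK against cNK in WT, where 3 of 6 and 0 of 6 samples correlated best with their own number; over the 2 pairs left elsewhere, the values were 0.055 and 0.0050 within the label CD8KO and 0.30 and 0.49 in LrNK by label. Where 1 sample of a group was left, it was assumed to vary like the other group. The precision for LrNK rests on 5 samples that differ in detected genes, and Myb had 0 counts in 3 of them.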
